A study of Mus musculus with 2 samples.

Results

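In a mouse melanoma, 2 kinds of collagen-rich stroma were compared within the WT section: an activated kind of the type seen in tumours and a kind that resembles fascia. Of the 3066 capture spots under tissue, 2671 had at least 5000 unique molecular identifiers (UMIs), the counted molecules. Members were chosen by measured counts. The top 20% of these spots by summed CPM (counts scaled to the total UMIs of a spot or group) of Col1a1, Col1a2 and Col3a1, the main fibrillar collagen genes, gave 534 collagen-rich spots. Each was scored as log2((Cthrc1 + Lrrc15 + 1)/(Dpt + Tnxb + 1)) from its raw UMIs. The 178 spots with the highest scores are called activated stroma, the 178 with the lowest fascia-type stroma, and the 178 between them intermediate spots. The 356 spots of the 2 types are part of 5812 spots in the whole series, of which 2746 belong to a KO section. Because measured counts chose the groups, every ratio between them describes these spots, and no p-value was computed.

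The tumours, grown from the pigment-making mouse melanoma line B16.F10, were taken untreated on day 15 from mice aged 8 to 16 weeks. The WT host, whose genotype is labelled wild-type, carried floxed Csnk2b alleles by its title and growth protocol, and its labels name no Cre. The KO host carried the same floxed alleles with Foxp3-Cre, which directs recombination to regulatory T cells and so removes Csnk2b, the regulatory subunit of protein kinase CK2, from them. No mouse with Foxp3-Cre and without the floxed alleles is among the groups used here. Both were measured on 10 µm sections of formalin-fixed, paraffin-embedded tissue with Visium CytAssist, a probe-based method that counts transcripts on a grid of barcoded spots, with 1 section per genotype.

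Fibroblasts make the collagen scaffold of connective tissue. In resting skin and fascia, fibroblasts marked by Dpt, Pi16 and Cd34 form loose sheets and surround vessels. Beside a growing tumour, fibroblasts can become activated under transforming growth factor beta (TGF-beta): they lay down new matrix, may build contractile actin fibres like smooth muscle, and often carry the surface protein Lrrc15 and the secreted protein Cthrc1. Dpt (dermatopontin) and Tnxb (tenascin X) organise collagen fibrils in undisturbed connective tissue.

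The groups were cut from a continuous score and lie side by side at the cuts. The last spot inside the collagen-rich set had 49472 collagen CPM and the first outside had 49087. The last activated spot scored 1.20 and the next intermediate spot 1.18, while the first fascia-type spot scored -0.53 and the intermediate spot before it -0.52. Activated spots were deeper, with a median of 20236 UMIs and 5884 genes against 12188 UMIs and 4323 genes in fascia-type spots. In sum the activated stroma had 3877826 UMIs, the fascia-type stroma 2230566 and the intermediate spots 2475664. Melanocytic genes made up a median 0.599% of the UMIs of activated spots, 0.248% of fascia-type spots and 4.83% of the 2137 remaining spots of at least 5000 UMIs. Spots are small regions that can hold several cells, neighbouring spots are not independent, and a lower level can mean fewer cells of a type or less RNA per cell, which cannot be told apart. The 95% intervals below cover counting error only, so the range over quadrants of the section is given for the spread. In brackets after a fold stand the interval and, where given, the range over the quadrants after a semicolon. A ratio without further words is activated over fascia-type, and list medians are medians of its log2 over measured members, those with at least 100 UMIs in either type. The quadrants were split at the median row and column, and 3 of them held enough spots of both types. The 2 sections share 2138 barcodes, which name grid positions, and none of those had identical counts in both.

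The 4 genes of the score set the groups, so their levels only describe the choice. Lrrc15 (chromosome 16, 30269302 to 30283254 in GRCm38.p6) had 372 CPM in the activated stroma and 108 in the fascia-type stroma, 3.46-fold more (3.01 to 3.98). Dpt had 175 and 1673 CPM, 9.54-fold more in the fascia-type stroma (8.79 to 10.4), and Tnxb had 56.2 and 1502 CPM, 26.7-fold more (23.3 to 30.8). Per spot, Lrrc15 ranged from 0 to 1217 CPM with a median of 329 in the activated stroma, and from 0 to 423 with a median of 89.7 in the fascia-type stroma. Per spot, Dpt ranged from 0 to 656 CPM with a median of 152 in the activated stroma, and from 136 to 3749.7 with a median of 1584 in the fascia-type stroma. Per spot, Tnxb ranged from 0 to 856 CPM with a median of 29.9 in the activated stroma, and from 0 to 4308 with a median of 1405 in the fascia-type stroma. The ranges of all 3 overlapped between the types while the medians lay apart. Cthrc1 (chromosome 15, 39076932 to 39087121) stood at 1382 CPM in the activated stroma, 1341 in the fascia-type stroma and 1704 in the intermediate spots, a ratio of 1.03 (0.985 to 1.08) whose interval includes 1. Per spot, Cthrc1 ranged from 424 to 4403 CPM with a median of 1193 in the activated stroma, and from 0 to 2852 with a median of 1244 in the fascia-type stroma. The groups overlapped over nearly the whole range, so Cthrc1 did not separate the groups. In the quadrants the Cthrc1 ratio was 0.883, 0.894 and 3.02. Cthrc1 still marked collagen-rich tissue as a whole, with 44.5 CPM in the remaining spots. The collagens of the rule differed little: Col1a1 was 1.25-fold and Col1a2 1.23-fold higher in the activated stroma, which turned to 0.864 and 0.850 when the top 30% of spots by collagen were used. Col3a1, the collagen of looser, younger fibrils, was 1.54-fold higher in the fascia-type stroma, 20907 against 32255 CPM.

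The types occupied different places. Fascia-type stroma formed a broad sheet, with 130 of 178 spots (73.0%) in 1 connected patch of the hexagonal grid and the next patch of 9 spots. Activated stroma lay in thin bands and islands: 23 patches, the largest of 36 spots (20.2%) and the next of 35. Of the neighbouring grid positions of activated spots, 54.4% were activated, 16.5% intermediate, 1.12% fascia-type and 26.0% remaining tissue. For fascia-type spots 60.7% were fascia-type, 24.6% intermediate, 1.13% activated and 11.0% remaining tissue. Each type made up 6.66% of the spots of at least 5000 UMIs. The types therefore rarely touched, and intermediate spots lay between them. At least 1 remaining spot bordered 120 activated spots (67.4%) and 51 fascia-type spots (28.7%). Spots whose melanocytic share was at or above the median of all spots of at least 5000 UMIs are called melanocytic-rich. The nearest of them was a median of 3 grid steps from an activated spot (range 1 to 8) and 5 from a fascia-type spot (2 to 10), with 74 (41.6%) and 16 (8.99%) within 2 steps. Distance from the tissue rim differed less, with medians of 2 and 2.5 steps.

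**Figure D1:**
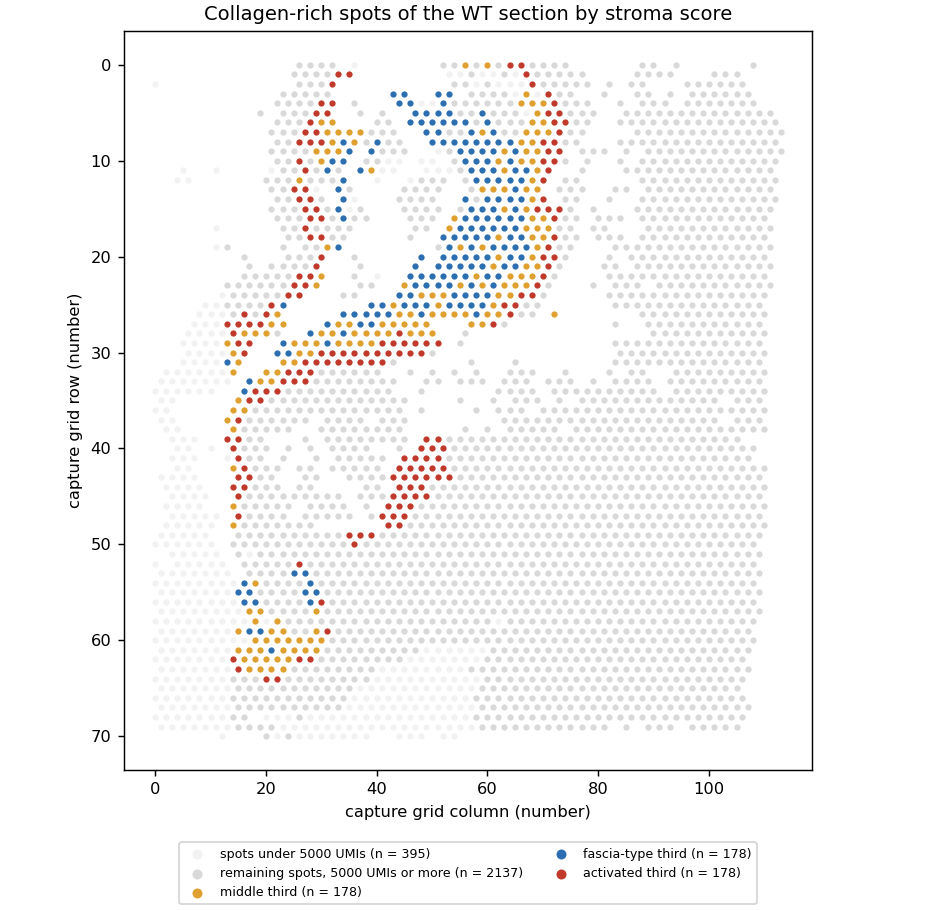
Positions of the collagen-rich spots of the WT section on the capture grid (row and column number), coloured by group, with the remaining spots in grey and spots under 5000 UMIs in light grey. Blue fascia-type spots fill a sheet of 130 connected spots, a strip of intermediate spots follows its border, and red activated spots line the side toward the remaining tissue and form a separate island of 35 spots near row 43.

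Activated patches were not alike. The island of 35 spots (median row 43, column 47) had 1994 CPM of Acta2, the smooth muscle actin of myofibroblasts, against 568, 533 and 411 in the other large patches of 36, 15 and 12 spots. It also had the most Postn, a matrix protein of activated fibroblasts, at 1340.0 CPM against 794 to 936, and the most Lrrc15, at 566 against 247 to 395. Cd209f gave no UMI in the island and 6, 1 and 8 UMIs in the patches of 36, 15 and 12 spots. The patch of 36 spots along the sheet (median row 31) had the most Tnc, a matrix glycoprotein of wounds and tumours, at 2167 CPM against 1210.0 to 1559.9. Fascia-type patches differed too. A patch of 6 spots near row 54.5, apart from the sheet, had 353 CPM of Cthrc1 and 68.9 of Tppp3, against 1465 and 992 in the sheet. Its Pi16 and Clec3b stood at 422 and 948 CPM, below the sheet's 536 and 1343 and above every activated patch named here. This patch also had no UMI of Cd209f, against 334 CPM in the sheet.

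Of 6937 genes with at least 100 UMIs in the higher group, the genes of the rule left out, 426 were at least 2-fold higher in the activated stroma (6.14%) and 326 at least 2-fold higher in the fascia-type stroma (4.7%). The median log2 ratio of all of them was 0.15. The level in the intermediate spots lay between those of the types for 413 of the 426 and 315 of the 326. Both sets were picked for differing between the ends of the same score, so this outcome was largely fixed in advance. It was not computed over all tested genes. When a random split gave each spot part of its UMIs for choosing the groups and the rest for comparing them, 238 and 231 of 4146 genes passed 2-fold in the respective type. After each spot was thinned to 5000 UMIs, 104 and 179 of 2062 genes did, with Tagln at 19.3 and Clec3b at 0.0977 in ratio. Of the 326 genes of the fascia-type stroma, 303 were also at least 2-fold higher there than in the remaining spots. No share over all tested genes was computed for this count or for those of the 426 below. The remaining spots were poor in stroma, with a median collagen share of 0.0368% of UMIs against 7.44% in fascia-type spots. The count therefore does not single out the fascia-type stroma among collagen-rich tissue. Of 85 genes that were at least 2-fold apart and were also followed through other settings, 48 were so in every quadrant with a value and 37 were not. The 85 include Lrrc15, Dpt and Tnxb of the score, which chose the groups, and genes picked for their extreme ratios. The 426 were mixed: 164 were at least 2-fold higher in activated stroma than in the remaining spots, and 151 were at least 2-fold higher in the remaining spots than in activated stroma. The latter include melanocytic genes such as Dct, and the melanocytic share of UMIs was higher in activated spots, as given above.

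**Figure D2:**
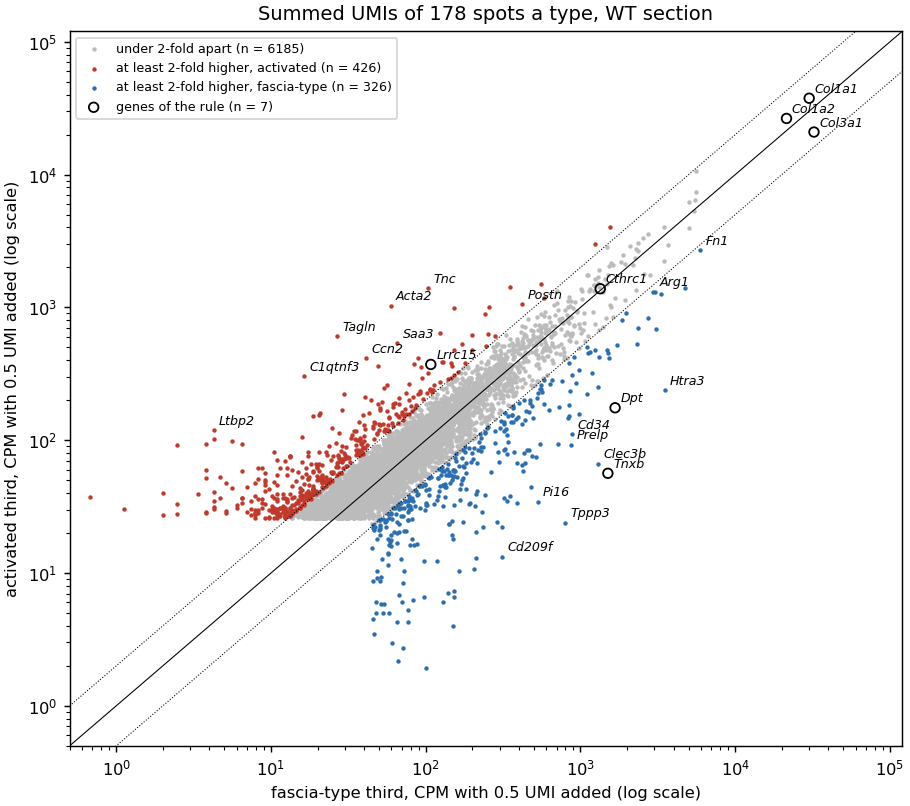
Summed level of each tested gene in fascia-type (x axis) and activated stroma (y axis), in CPM with 0.5 UMI added, on log scales; dotted lines mark 2-fold and open circles the genes of the rule. Tagln, Acta2 and Tnc stand far above the diagonal, Tppp3, Clec3b and Htra3 far below it, and Cthrc1 lies on it.

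Genes of the contractile actin apparatus were higher in the activated stroma, with the highest median of the 31 lists that had at least 3 measured members. All 10 measured genes of that list were above 1 in ratio, 7 of them past 2-fold, and the list median on the log2 scale was 1.93. Tagln (transgelin, an actin-binding protein of smooth muscle; chromosome 9, 45929628 to 45936058) had the highest ratio among genes with at least 500 UMIs: 2359 UMIs against 59, or 608 against 26.5 CPM, a 23.0-fold difference (17.8 to 30.3; 10.4 to 47.7 over the quadrants). Per spot, Tagln ranged from 0 to 1982 CPM with a median of 517 in the activated stroma, and from 0 to 764 with a median of 0 in the fascia-type stroma. Tagln was at 0 in 12 activated and 147 fascia-type spots, and 2 fascia-type spots exceeded the activated median. Acta2 (chromosome 19, 34240336 to 34255585) had 1033 and 59.2 CPM, a 17.5-fold difference (14.7 to 20.9; 14.3 to 22.3). Per spot, Acta2 ranged from 0 to 3367 CPM with a median of 695 in the activated stroma, and from 0 to 2034 with a median of 0 in the fascia-type stroma, with 6 fascia-type spots above the activated median. Without the sheet of 130 fascia-type spots the Tagln ratio was 7.90 and that of Acta2 5.77, so the 48 fascia-type spots outside the sheet had a higher pooled level of both. These spots were uneven. A patch of 9 had 0 CPM of Tagln and 7.52 of Acta2, and a patch of 5 had 208 and 283, against 7.96 and 15.3 in the sheet. Myl9, a myosin light chain, was 7.73-fold higher (5.72 to 10.7), Tpm2 and Tpm1, tropomyosins that wrap actin filaments, 4.70-fold and 3.11-fold. Des, the desmin of muscle, had 32.2 and 21.5 CPM, a ratio of 1.50 that was 0.494 without the sheet. Rgs5, a marker of pericytes, the contractile cells around capillaries, had 35.1 and 26.9 CPM, a ratio of 1.30 that was 0.355 without the sheet, and Pdgfrb, shared by pericytes and fibroblasts, was 2.57-fold higher in the activated stroma. The Pdgfrb ratio ran from 1.19 to 2.85 over the quadrants.

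The promoters of contractile genes are shown because these genes were high together. Textbook regulators bind a CArG box (serum response factor) and the letters CATTCC (TEAD factors, partners of YAP). Both motifs were searched on both strands of the 250 bases before the start in RefSeq GRCm38.p6, so GGAATG counts as a match of CATTCC. Only the exact CArG box CCWWWWWWGG, with W for A or T, was counted. CArG-like sites with a substituted letter were not counted and stay in lower case, such as ccctatatgg and ccttgtttgg of Acta2 and ccttgtaagg of Myl9. A gene can have several annotated starts, and for the 4 genes shown the start used lies inside the span of the whole gene. In the sequences, read 5′ to 3′ on the gene's strand, capitals mark a match.
Acta2, chr19:34255374-34255623, minus strand: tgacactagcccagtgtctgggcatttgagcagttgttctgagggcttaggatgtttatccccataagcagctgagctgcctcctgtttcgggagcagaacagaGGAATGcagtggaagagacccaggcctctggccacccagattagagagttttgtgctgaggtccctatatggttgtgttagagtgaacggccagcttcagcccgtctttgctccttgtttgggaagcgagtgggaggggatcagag
Tpm1, chr9:67049214-67049463, minus strand: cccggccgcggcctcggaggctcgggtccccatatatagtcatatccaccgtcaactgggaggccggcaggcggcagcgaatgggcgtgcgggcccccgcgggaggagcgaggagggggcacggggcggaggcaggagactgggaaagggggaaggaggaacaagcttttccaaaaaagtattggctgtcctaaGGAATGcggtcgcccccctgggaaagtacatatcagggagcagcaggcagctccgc
Myl9, chr2:156775214-156775463, plus strand: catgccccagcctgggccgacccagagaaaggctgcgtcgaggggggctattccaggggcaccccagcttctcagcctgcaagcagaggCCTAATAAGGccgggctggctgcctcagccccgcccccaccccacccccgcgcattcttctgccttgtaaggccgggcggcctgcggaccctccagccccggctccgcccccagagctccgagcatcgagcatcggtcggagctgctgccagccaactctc
Tpm2, chr4:43523555-43523804, minus strand: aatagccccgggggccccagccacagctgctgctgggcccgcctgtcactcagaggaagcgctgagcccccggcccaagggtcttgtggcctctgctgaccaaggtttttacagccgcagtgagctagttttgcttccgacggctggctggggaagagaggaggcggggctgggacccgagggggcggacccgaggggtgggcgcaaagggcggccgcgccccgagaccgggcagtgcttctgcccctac
Acta2 had GGAATG starting 146 bases before the start and Tpm1 had it 56 bases before, Myl9 had a CArG box 161 bases before, and Tpm2 had neither in this window. A gene counted as a match when any of its annotated starts had the motif. CATTCC or GGAATG was present in 6 of 11 matched contractile genes and in 14.4% of all 27025 RefSeq genes. The share was 12.6% of the 5522 tested genes with a promoter. It was 15.8% of genes at least 2-fold higher in the activated stroma and 15.5% of those at least 2-fold higher in the fascia-type stroma. An exact CArG box was present in 1 of the 11, in 1.62% of all RefSeq genes, in 1.50% of tested genes, and in 3.22% and 2.65% of the genes of the 2 types. CArG-like sites are not in these shares. The motif shares of the types were thus close to each other. For the exact CArG box both lay above the share of tested genes, on 10 of 311 and 6 of 226 genes, which was not tested.

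Several secreted matrix genes were among the 20 highest ratios, while the matrix lists described further on held genes of both types. Tnc (chromosome 4, 63959785 to 64047015) had 1389 against 103 CPM, a 13.5-fold difference (11.8 to 15.4; 3.72 to 21.6 over the quadrants). Per spot, Tnc ranged from 0 to 4835 CPM with a median of 1103 in the activated stroma, and from 0 to 739 with a median of 58.8 in the fascia-type stroma, and no fascia-type spot exceeded the activated median. Col12a1, a collagen that decorates fibrils under tension, had 983 and 151 CPM (6.51-fold, 5.82 to 7.30; 4.60 to 7.94). Ccn2, a matrix-bound growth regulator induced by TGF-beta and stretch, was 10.2-fold higher (8.22 to 12.7; 2.27 to 21.6). C1qtnf3, a secreted C1q-like protein, was 18.9-fold, Cilp, a matrix protein that binds TGF-beta, 7.54-fold, Mfap4, a microfibril protein, 7.40-fold and Col8a1, a short-chain collagen, 4.49-fold higher; the ratio of Cilp was 1.59 in the high-row, low-column quadrant and that of Col8a1 1.19 in the low-row, high-column quadrant. Others among the 20 highest ratios were Saa3, an acute-phase protein (8.28-fold), Kif26b, an atypical kinesin (7.73-fold), Slc40a1, the iron exporter ferroportin (5.27-fold), and Clec4n, the fungal receptor dectin-2 of myeloid cells (4.57-fold). In the high-row, low-column quadrant Slc40a1 had a ratio of 1.43 and Clec4n 1.50. Saa3 was patchy. Per spot, Saa3 ranged from 0 to 6452 CPM with a median of 72.7 in the activated stroma, and from 0 to 1449 with a median of 0 in the fascia-type stroma, and the intermediate spots had more than either type at 591 CPM. Mlph, a carrier of melanosomes, was 5.90-fold higher in the activated stroma but stood at 581 CPM in the remaining spots against 169 there, and its ratio was 1.48 between melanocytic-poor spots of the types, defined below. Gask1b likewise had 338 CPM in the remaining spots against 262 in the activated stroma.

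Genes listed for fascia and adventitial fibroblasts were higher in the fascia-type stroma. No tissue of a tumour-free mouse was measured, so whether this stroma is uninvolved by the tumour was not tested. The list of fascia and adventitial fibroblast genes had 17 of 22 measured members at least 2-fold higher there, none past 2-fold on the other side, and a log2 median of -2.49. Tppp3, a tubulin-binding protein found in tendon sheath cells, had the largest fold toward this stroma among genes with at least 500 UMIs, with 23.7 CPM in the activated stroma and 794 in the fascia-type stroma, 33.4-fold (27.1 to 41.7; 7.29 to 36.5 over the quadrants). Per spot, Tppp3 ranged from 0 to 373 CPM with a median of 0 in the activated stroma, and from 0 to 2989 with a median of 736 in the fascia-type stroma, and no activated spot exceeded the fascia-type median. Clec3b (tetranectin, a plasminogen-binding lectin; chromosome 9, 123150946 to 123157432) had 66.3 and 1303 CPM, 19.7-fold (17.3 to 22.4; 17.2 to 20.3). Per spot, Clec3b ranged from 0 to 566 CPM with a median of 36.2 in the activated stroma, and from 0 to 3652 with a median of 1207 in the fascia-type stroma. Pi16, a peptidase inhibitor that marks adventitial fibroblasts, was 15.4-fold (12.9 to 18.6; 8.21 to 18.7) and Scara5, a ferritin receptor of such cells, 20.9-fold higher (14.2 to 32.0). Htra3 (chromosome 5, 35652026 to 35679813), a secreted serine protease, had the most UMIs of the 20 genes, with 238 and 3501 CPM, 14.7-fold (13.8 to 15.8; 3.44 to 19.0). Per spot, Htra3 ranged from 0 to 1178 CPM with a median of 202 in the activated stroma, and from 0 to 12568 with a median of 2828 in the fascia-type stroma, with no activated spot above the fascia-type median. Cd34 was 7.97-fold (7.18 to 8.87; 6.44 to 11.5), and Efemp1, an elastic fibre protein, and Prelp, a proteoglycan that anchors basement membranes, 10.8-fold and 9.41-fold higher. Sema3c, a guidance cue, Tmem100, a membrane protein, Adamts15, a proteoglycan-cleaving enzyme, and Spon2, a matrix protein, were 8.62-fold to 11.9-fold higher. The rest of the 20 were Ltc4s, the leukotriene C4 synthase, Klf4, a transcription factor, Tnfaip6, a hyaluronan-binding protein, and Lrrn4cl, Scara3 and Gas7, at 6.52-fold to 14.2-fold, besides the macrophage genes described below; Tnfaip6 was 1.06-fold higher in the high-row, low-column quadrant. Gpx3, a secreted glutathione peroxidase, and Procr, a protein C receptor, were the members on the other side, with 1.38-fold and 1.75-fold more in the activated stroma. Wnt2 and Sulf1, counted among activated fibroblast genes, went against their list, being 5.76-fold and 2.84-fold higher in the fascia-type stroma; the Wnt2 ratio of activated over fascia-type was 1.06 in the high-row, low-column quadrant. Fap completes the 3 measured members of that list below 1. It had 53.1 CPM in the activated and 56.0 in the fascia-type stroma, a ratio of 0.948. Sulf1, a heparan sulfatase, and Fap were picked after their values were seen. The activated fibroblast list as a whole had 10 of 16 measured members at least 2-fold higher in the activated stroma and a list median of 1.33. That median was 0.49 in the low-row, high-column quadrant. Postn was 2.52-fold (2.35 to 2.71; 1.50 to 2.91) and Thbs2, a thrombospondin, 1.37-fold.

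**Figure D3:**
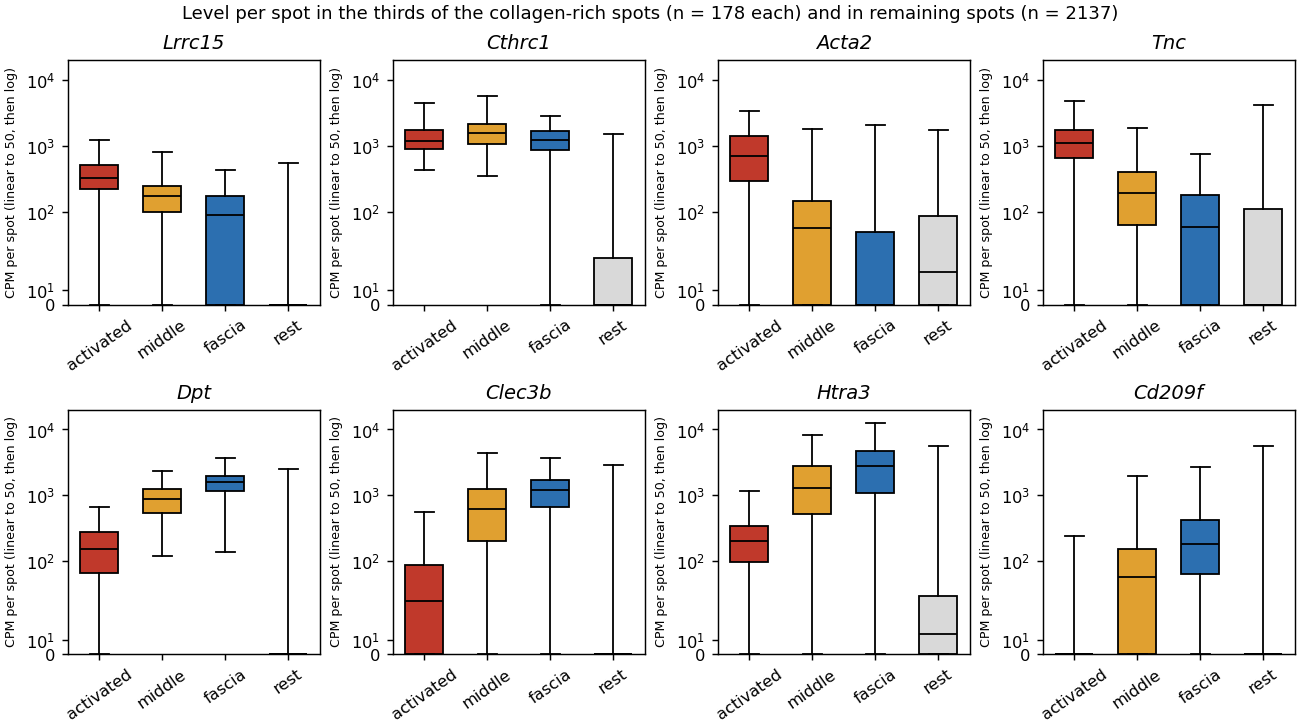
Level per spot (CPM, linear to 50 and then logarithmic) of 8 genes in activated, intermediate (middle) and fascia-type spots (n = 178 each) and in 2137 remaining spots; boxes span the quartiles with the median, whiskers the full range. Acta2 and Tnc step down and Dpt, Clec3b, Htra3 and Cd209f step up from activated to fascia-type spots, while the Cthrc1 boxes overlap.

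General fibroblast genes were present in both types, with 15 measured members, 1 at least 2-fold higher in the activated stroma, 5 in the fascia-type stroma, and a median of -0.75. Sparc, a collagen-binding protein, had a ratio of 1.32 and Vim (vimentin) 0.795. Fstl1, a secreted follistatin-like protein, was 2.24-fold higher in the fascia-type stroma but had a ratio of 1.06 in the high-row, low-column quadrant, and S100a4, a calcium-binding protein of motile cells, was 3.72-fold higher in the fascia-type stroma (1.28-fold in that quadrant).

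The collagen lists differed in their medians and did not split cleanly by class. Of 10 fibrillar and associated collagens, 2 were at least 2-fold higher in each type, and the list median was 0.37. Col5a1 and Col5a2, which nucleate fibrils, were 1.32-fold and 1.28-fold higher in the activated stroma, while Col5a3 was 2.59-fold higher in the fascia-type stroma. Col6a2, a chain of beaded filament collagen, had a ratio of 1.16. The basement membrane and other collagens had 6 measured members, all above 1 and 3 at least 2-fold, with a median of 1.32. Col8a2 gave 357 and 5 UMIs (41.1-fold, 17.4 to 127), and Col15a1, of vessel and muscle basement membranes, was 3.84-fold higher but 0.475 in the high-row, low-column quadrant. The list median was -1.08 in that quadrant and -0.11 without the sheet. Col4a1 and Col4a2, chains of basement membrane collagen, had ratios of 1.54 and 1.46, with 0.265 and 0.219 in that quadrant. The machinery that folds and crosslinks collagen was near even, with a median of 0.14 and 1 of 22 members past 2-fold, Adamts14, a procollagen peptidase that was 2.88-fold higher in the fascia-type stroma. Serpinh1, the collagen chaperone, had a ratio of 1.30, and Loxl3, a crosslinking oxidase, 1.99.

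Other matrix lists held genes of both types. Proteoglycans had 5 of 15 members at least 2-fold higher in each. Fmod (fibromodulin, a regulator of fibril width) gave 393 and 9 UMIs (25.1-fold, 13.1 to 55.3) and Bgn (biglycan) was 1.92-fold higher in the activated stroma. Dcn (decorin, which binds and restrains TGF-beta) was 2.17-fold higher in the fascia-type stroma. The elastic fibre and microfibril list had 4 of 17 members past 2-fold in each direction. Ltbp2, which binds fibrillin, was 29.3-fold higher in the activated stroma (459 against 9 UMIs, 15.3 to 64.6), and Ltbp1, which holds latent TGF-beta in the matrix, was 13.8-fold higher in the fascia-type stroma (13 against 103, 7.71 to 26.7). Fbn1 (fibrillin 1, the microfibril scaffold) was 3.29-fold higher in the fascia-type stroma (1.09-fold in the high-row, low-column quadrant), and Fbln2 had a ratio of 1.10. Matricellular genes, which tune how cells grip the matrix, had 7 of 16 members at least 2-fold higher in the activated stroma and 3 in the fascia-type stroma, with a median of 0.63. Thbs1, an activator of latent TGF-beta, was 2.45-fold higher in the activated stroma. Fn1 (fibronectin), the member with the most UMIs, had 2704 and 5896 CPM, 2.18-fold higher in the fascia-type stroma (2.13 to 2.24), with a ratio of activated over fascia-type of 1.05 in the high-row, low-column quadrant. Ccn3 was 5.61-fold higher in the fascia-type stroma and went the other way in that quadrant (1.32).

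Among TGF-beta genes the ligand Tgfb3 was higher in the activated stroma and the receptor Tgfbr2 in the fascia-type stroma. Tgfb3 was 8.24-fold higher in the activated stroma, with 2.07 to 8.78 over the quadrants. Tgfb1 was 1.40-fold higher there, with a ratio of 0.926 in the high-row, low-column quadrant. Tgfbr2, which starts signalling when a ligand binds, was 3.64-fold higher in the fascia-type stroma (3.43 to 3.86; 1.95 to 4.16 over the quadrants). Of 14 measured genes of the list 6 were at least 2-fold higher in the activated stroma and 2 in the fascia-type stroma, with a median of 0.59, against 0.15 for all tested genes. Among Wnt modulators 3 of 9 went past 2-fold in each direction: Wnt5a was 6.26-fold higher in the activated stroma (196 and 18 UMIs), with 1.05 in the high-row, low-column quadrant, and Sfrp2, a secreted Wnt-binding protein, 3.06-fold higher in the fascia-type stroma.

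Proteases and inhibitors had 6 of 23 members past 2-fold on each side. Mmp12, the macrophage elastase, gave 382 and 12 UMIs (18.3-fold higher in the activated stroma, 10.4 to 35.8). Mmp14, the membrane collagenase, had a ratio of 1.34, and Mmp2, the gelatinase it activates, was 1.56-fold higher in the fascia-type stroma.

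**Figure D4:**
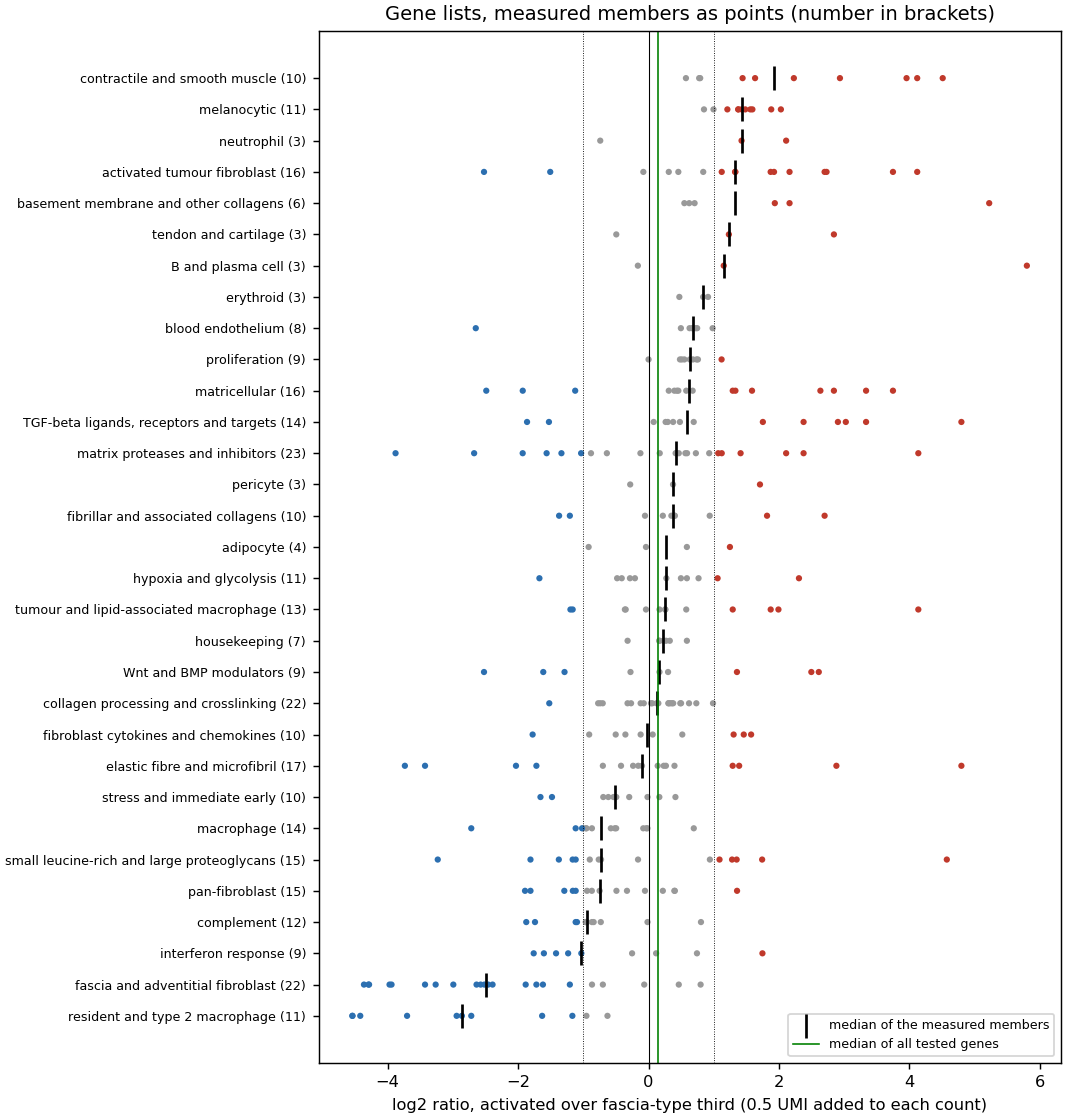
Log2 ratio of activated over fascia-type stroma for each measured member of the gene lists (points; red and blue past 2-fold) with list medians (black bars) and the median of all tested genes (green line, 0.15). Contractile genes have the highest list median, 1.93, and resident and type 2 macrophage genes the lowest, -2.86.

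Macrophage genes differed by subtype. Genes of tissue-resident and type 2 macrophages had 9 of 11 measured members at least 2-fold higher in the fascia-type stroma and none in the other direction, with a median of -2.86. That median was -0.87 in the high-row, low-column quadrant. Cd209f, a lectin of resident macrophages, had 13.2 and 309 CPM, 23.5-fold (17.7 to 31.9; 8.88 to 26.6 over the quadrants). Per spot, Cd209f ranged from 0 to 239 CPM with a median of 0 in the activated stroma, and from 0 to 2649 with a median of 183 in the fascia-type stroma. Lyve1, a hyaluronan receptor that also marks lymphatic vessels, was 23.7-fold (1.27-fold in the high-row, low-column quadrant), Cd163, the haemoglobin scavenger receptor, 6.60-fold, and F13a1, the coagulation factor XIII subunit, 3.10-fold higher in the fascia-type stroma. Pf4 and Mrc1, the mannose receptor, differed less (1.55-fold and 1.94-fold). Cd5l, a lipid-regulating macrophage protein, and Cbr2, a carbonyl reductase, both among the 20 genes with the most extreme ratios, were 10.8-fold and 7.28-fold higher. General macrophage genes had 3 of 14 members at least 2-fold higher in the fascia-type stroma and none in the activated stroma, with a median of -0.72. Genes of tumour and lipid-associated macrophages were mixed, with 4 of 13 past 2-fold in the activated stroma and 2 in the fascia-type stroma. Arg1, the arginase of type 2 macrophages and myeloid suppressor cells, was 2.29-fold higher in the fascia-type stroma (1315 and 3015 CPM), and Ctsd, a lysosomal protease, had a ratio of 1.20. The Arg1 ratio of activated over fascia-type ran from 0.468 to 0.831 over the quadrants and was past 2-fold in 1 of 3.

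Complement genes were lower in the activated stroma, with 11 of 12 measured members below 1, 4 of them at least 2-fold, and a median of -0.95. C1qa, a recognition subunit made by macrophages, was 2.17-fold and C4b 3.67-fold higher in the fascia-type stroma, while C2 was 1.76-fold higher in the activated stroma. Chemokine genes had a median of -0.03. Ccl11 (eotaxin) was 3.43-fold and Ccl8, a monocyte attractant, 1.88-fold higher in the fascia-type stroma, Cxcl16 was 2.99-fold higher in the activated stroma with 0.827 in the high-row, low-column quadrant, and Il33, an alarmin, had a ratio of 1.05. Interferon response genes had a median of -1.03, with 5 of 9 at least 2-fold higher in the fascia-type stroma, among them Irf7 (2.67-fold) and Ifit1 (3.40-fold). Over the quadrants the ratio of activated over fascia-type ran from 0.325 to 0.707 for Irf7 and from 0.201 to 0.534 for Ifit1. Cxcl10, a T cell attractant, went the other way at 3.37-fold (1.14 to 9.57 over the quadrants), with 359 CPM in the remaining spots. The list median was 0.17 with the top 10% of spots by collagen.

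Melanocytic genes were higher in the activated stroma as a group, with 11 of 11 members above 1 and 9 at least 2-fold, and far below the remaining spots. Dct, a melanin enzyme, had 4022 CPM in activated, 1548 in fascia-type and 24978 in remaining spots, and Pmel, the fibril protein of melanosomes, 1497, 556 and 6776. The summed list ran from 0.0306% to 2.81% of UMIs over activated spots and from 0.0128% to 2.48% over fascia-type spots. Between the 61 activated and 113 fascia-type spots with a melanocytic share below the median of the collagen-rich spots (melanocytic-poor), the list median was 0.03, the ratio of Dct 1.01, and 181 and 243 genes of 3400 passed 2-fold in the respective type. In that comparison Tagln had a ratio of 25.0, Acta2 20.2, Tnc 16.3 and Postn 2.33, and the contractile list a median of 2.95. Clec3b was 20.6-fold and Cd209f 15.7-fold higher in the fascia-type stroma. Proliferation genes had a median of 0.63, with Mki67 at 1.40 and Cdk1 at 1.69. Car9, a carbonic anhydrase of low oxygen, was 4.99-fold and Vegfa 2.09-fold higher in the activated stroma, and their ratios between melanocytic-poor spots were 2.64 and 1.52. Over the quadrants the Car9 ratio ran from 1.81 to 18.3 and that of Vegfa from 1.26 to 3.94. Car9 and Vegfa were the 2 of 11 measured hypoxia and glycolysis genes past 2-fold on that side. Of the 11, 6 were above 1 and 5 below, with a median of 0.27. Ankrd37 was 3.20-fold higher in the fascia-type stroma. The list median was -0.11 between melanocytic-poor spots and -0.28 without the largest activated patch.

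Markers of other cell types were counted in both types. Endothelial genes had 7 of 8 measured members above 1 and none at least 2-fold higher in the activated stroma, and summed to 767 CPM in the activated stroma and 745 in the fascia-type stroma, with Cdh5, the vessel cadherin, at 1.98 and Plvap at 1.41. Without the sheet of fascia-type spots these were 0.576 and 0.388, and the list median turned from 0.67 to -1.16. Aqp1, a water channel, was 6.29-fold higher in the fascia-type stroma. Fabp4 and Car3 of fat cells had ratios of 1.51 and 0.529. Neither direction was steady: without the sheet Fabp4 had 0.422, and between spots over 2 steps from the rim Car3 had 2.15. No skeletal muscle or mast cell gene reached 100 UMIs, and 17 genes of unrelated organs, a gauge of probe background, summed to 6.96 and 5.38 CPM. Antibody genes were uneven: Igha gave 145 UMIs in the activated stroma and 1 in the fascia-type stroma, a ratio of 83.4 with a counting interval of 14.7 to 3317, while Igkc had a ratio of 0.893 that was 0.239 without the sheet and 7.85 in the low-row, low-column quadrant. Trbc2, a T cell receptor constant region, gave 131 and 19 UMIs (3.97-fold) and Ccl5 was 2.37-fold higher in the activated stroma. In the high-row, low-column quadrant these were 0.725 and 0.586. The part of these cells in the differences above was not tested. Housekeeping genes had a median of 0.23, with Actb at 1.25 and B2m at 0.800. Immediate early genes had 8 of 10 members below 1, with Jun 1.62-fold and Fos 3.16-fold higher in the fascia-type stroma.

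The KO section, which the choice of WT spots did not use, was split by the same rule on its own counts. It held much less collagen: its top 20% began at 2004 collagen CPM against 49472 in the WT section, and 6 KO spots passed the WT limit, all with scores in the WT fascia-type range. The 159 highest-scoring KO spots had a median of 36576 UMIs and a melanocytic share of 3.43%, and the 159 lowest-scoring 8378 UMIs and 0.519%, so the KO groups are not matched to the WT types in depth or in tumour content. Of 8406 KO genes tested, 19% were at least 2-fold higher in the higher-scoring and 10.8% in the lower-scoring spots. Of 242 WT fascia-type genes measured in both, 191 were at least 2-fold higher in the lower-scoring KO spots and 4 at least 2-fold lower. Among WT activated genes, 209 of the 337 measured in both passed 2-fold toward the higher-scoring KO spots and 33 toward the lower-scoring ones.

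The fascia-type genes named next were on the same side in both sections. In the KO section Clec3b was 63.3-fold, Pi16 61.6-fold, Cd209f 31.8-fold and Tppp3 9.92-fold higher in the lower-scoring spots, and 21 of 22 fascia and adventitial genes passed 2-fold there, with a list median of -3.85. Contractile genes did not follow: Tagln had a ratio of 0.686 and Acta2 of 0.981, and the list median was -0.03. Tnc (2.09-fold), Col12a1 (2.79-fold) and Myl9 (2.48-fold) were higher in the higher-scoring KO spots. Skeletal muscle genes, which summed to 25.3 and 73.1 CPM in the WT types, were higher in the lower-scoring KO spots, with all 13 measured members at least 2-fold and a median of -5.98. So were 14 of 14 macrophage, 12 of 13 complement and 10 of 14 general fibroblast genes. The direction was thus not particular to the fascia and adventitial genes. Melanocytic genes went the other way, 12 of 12. The median collagen share was 2.20% of UMIs in the lower-scoring and 0.426% in the higher-scoring KO spots. When only the 294 KO collagen-rich spots with a melanocytic share no higher than 2.81% were split, the melanocytic shares were 2.08% and 0.487%. There Tagln had a ratio of 1.82, Acta2 2.92, Tnc 4.55 and Postn 1.35, the contractile list a median of 0.71, and Clec3b was 16.9-fold higher in the lower-scoring spots. Cthrc1, part of the score that sorted these spots, had a ratio of 0.968 over all KO collagen-rich spots and 2.35 in the restricted set.

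**Figure D5:**
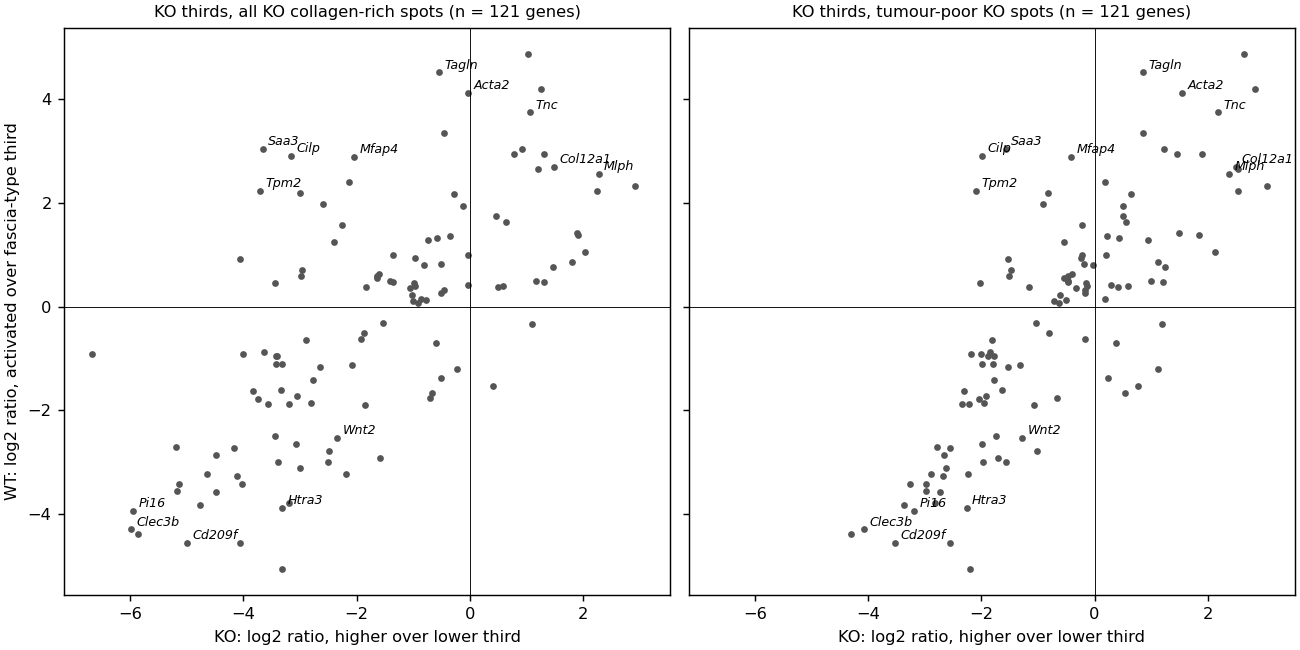
Log2 ratio of named genes between activated and fascia-type stroma of the WT section (y axis) against the log2 ratio of higher-scoring over lower-scoring collagen-rich spots of the KO section (x axis), for all KO collagen-rich spots (left) and the tumour-poor ones (right); genes had at least 30 UMIs in the KO groups. Fascia-type genes such as Clec3b and Pi16 lie at the lower left in both panels, whereas Saa3, Cilp and Tpm2 lie at the upper left.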

How the data were processed

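For each section the authors deposited UMI counts per gene and spot for 19465 genes, and the file headers name Space Ranger 2.1.0 as the software; the submitters' processing notes also name featureCounts and the mm10 build. Grid positions were taken from the deposited position tables, and the deposited Moran's I score of each gene entered no result. Counts are whole numbers and not normalized. UMIs were summed over the spots of a group and divided by the group's total (CPM). Ratios carry exact binomial (Clopper-Pearson) 95% intervals of counting error. With 1 section per genotype and groups chosen on the same counts, no test was run. A gene was tested against the 2-fold limit with at least 100 UMIs in the higher group, and log2 ratios had 0.5 added to each count. List medians need 3 measured members. Neighbours are the 6 nearest hexagonal positions. Melanocytic-rich spots have at least the median melanocytic share over the section's spots of at least 5000 UMIs. On simulated counts the 2-fold limit recovered all of the genes changed 3-fold or more. Those counts had counting error only, no patches, changed genes expected above the count minimum, and groups not chosen on the counts. The run checks the calculation and does not show how the limit performs in real spots.

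Named genes were the 7 of the rule, the 20 highest and 20 lowest ratios with at least 500 UMIs, and of each of 39 lists the 3 members with most UMIs and those of extreme ratio. Some genes that this rule names are not reported here. The members and lists were chosen with earlier results of these data known. Python 3.11.15, scipy 1.17.1 and edgeR 4.0.16 (TMM factors only) were used. Gene positions and promoters are RefSeq GRCm38.p6, the assembly that mm10 denotes. Alternatives changed scaling, the collagen share, the depth, the score genes, the spots and the count minimum.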

Additional observations from a re-analysis of the deposited data

Results flagged for a closer look

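Of the genes named, 8 were at least 2-fold higher in the activated stroma of the WT section and at least 2-fold lower in the higher-scoring spots of the KO section, each relative to its section's other group. The KO ratio of higher-scoring over lower-scoring spots was 0.0790 for Saa3, 0.0766 for Tpm2, 0.112 for Cilp, 0.125 for Clec4n, 0.166 for Trbc2, 0.208 for Cxcl16, 0.227 for Slc40a1 and 0.243 for Mfap4. In the tumour-poor KO spots the ratios were 0.337 for Saa3, 0.235 for Tpm2, 0.251 for Cilp, 0.565 for Clec4n, 0.533 for Trbc2, 0.857 for Cxcl16, 1.13 for Slc40a1 and 0.748 for Mfap4. Tpm2 is also a gene of skeletal muscle, whose listed genes were higher in the lower-scoring KO spots. With 1 section per genotype the difference was not tested.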

How the results depend on the processing

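Of 85 named genes at least 2-fold apart, 77 stayed on the same side of 1 and 46 stayed at least 2-fold apart in every one of 20 alternatives that gave a value, and 15 of 31 list medians kept their sign. The 85 include Lrrc15, Dpt and Tnxb, which chose the groups, and genes picked for extreme ratios. For these, staying apart was partly fixed in advance. Scaling by edgeR TMM factors moved all log2 ratios by -0.10 and gave 366 and 385 genes at least 2-fold higher in the activated and the fascia-type stroma. The counts, in that order, were 183 and 187 with the top 10% by collagen, 1053 and 587 with the top 30%, 104 and 179 after thinning each spot to 5000 UMIs, 1001 and 515 with at least 20 UMIs per gene, 101 and 119 with at least 500, 157 and 73 in the high-row, low-column quadrant, and 105 and 138 in the low-row, high-column quadrant. These settings test fewer or more genes. For the activated stroma the count was 238 when groups were chosen on part of the UMIs, 181 between melanocytic-poor spots and 236 between spots over 2 steps from the rim. Without the largest fascia-type patch 215 genes passed 2-fold toward the fascia-type stroma; this setting and the tumour-poor KO spots were added after seeing the data. The latter gave 697 and 451 KO genes against 1594 and 904.

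The largest activated patch held 29.2% with the top 10% by collagen, and the largest fascia-type patch 64.7% with smaller score groups of 133 spots, 60.5% with at least 10000 UMIs, 56.7% with Cthrc1 against Dpt alone and 82.6% with Lrrc15 against Tnxb alone. Of 10 list medians at least 1 from 0 on the log2 scale, 3 turned in some alternative, namely basement membrane and other collagens (-1.08 in the high-row, low-column quadrant, -0.11 without the largest fascia-type patch), B and plasma cell genes (-0.70 with the top 30%, -0.72 without that patch) and interferon genes (0.17 with the top 10%, 0.12 with at least 500 UMIs). Of 21 medians nearer 0, 13 turned in some alternative, among them blood endothelium (0.67 to -1.16 without that patch), erythroid genes (0.84 to -0.66 without it), fat cell genes (0.27 to -1.34 with the top 30%) and Wnt and BMP modulators (0.17 to -1.26 in the low-row, high-column quadrant). Among genes at least 2-fold apart, the ratios that turned in the high-row, low-column quadrant were Wnt2 1.06, Fstl1 1.06, Col15a1 0.475, Fn1 1.05, Ccn3 1.32, Cxcl16 0.827, Trbc2 0.725 and Ccl5 0.586, and Ccl5 was 0.944 without the largest fascia-type patch. The 48 named genes under 2-fold apart include Cthrc1 and the collagens of the rule. Of the 48, 28 turned in some alternative and 15 in the high-row, low-column quadrant, among them Cdh5 (0.209), Plvap (0.154), Rgs5 (0.134), Des (0.158), Fabp4 (0.163) and C2 (0.532). The cause was not tested. That quadrant held 46 activated and 14 fascia-type spots. No paired analysis was possible because each genotype has 1 section. Genes with fewer than 100 UMIs in both types were not read.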
